A study of Mus musculus with 8 samples.

Results

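The genes described here are 8 members of a signalling route in vascular endothelium: Krit1, Ccm2, Pdcd10, Heg1, Map3k3, Klf2, Klf4 and Nos3. They were measured in cells of mouse embryos at E13.5 that were sorted for green fluorescence, out of the cortex and out of the lungs. A probe set, the group of short probes that measures a transcript, was used where the array annotation gave it to exactly 1 gene, and of several such probe sets the one that was highest on average over the 8 arrays stood for the gene. The members are 8 of 18193 genes measured in this way. They had 19 such probe sets in all, 5 for Krit1, 3 each for Ccm2, Pdcd10 and Map3k3, 2 for Klf4 and 1 each for Heg1, Klf2 and Nos3.

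Cortex cells came from Tie2-GFP embryos at E13.5 whose cortex had been freed of meninges and choroid plexus, and 4 arrays were made from them. Lung cells came from Tie2-GFP embryos of the same age, also with 4 arrays. All mice were homozygous for the transgene, in which the promoter of Tek (Tie2), an endothelial receptor gene that some blood cells also use, drives green fluorescent protein. No other allele and no treatment was given. Tissues were diced and dissociated with collagenase before sorting. The embryos of a litter, 10 to 13 of them, were pooled as a replicate, with 4 litters in the study. The RNA, 15 to 30 ng, was linearly amplified before it was hybridised. The samples carry the numbers 72, 22, 19 and 18 in each tissue, and the labels do not say whether equal numbers mark the same litter. The description field of the 4 samples numbered 19 and 18 names the other tissue. Titles, source names and tissue labels were used instead. Array medians lay between 6.59 and 6.72 log2 units, and the small number of arrays limits the precision.

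Krit1, Ccm2 and Pdcd10 encode the cytoplasmic proteins whose loss causes cerebral cavernous malformations, clusters of dilated and leaky vessels of the brain. The proteins form a complex that is anchored at the cell surface by the receptor HEG1 and that holds back the kinase MEKK3, the product of Map3k3. MEKK3 feeds a cascade through MEK5 and ERK5 to MEF2 factors, which raise the transcription factors KLF2 and KLF4. The same 2 factors are raised in endothelium by laminar blood flow, and endothelial nitric oxide synthase, the product of Nos3, is among their known targets.

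The sequences just before the start sites of Klf2, Klf4 and Map3k3 are given with the motifs of the route in capitals. Klf2 and Klf4 are the members that MEF2 factors raise. Klf4 and Map3k3 are the members that passed the test described further on. The sequences were chosen for these reasons. The sequences are the 250 bases before the annotated start, from RefSeq, build GRCm38.p6, each written 5′ to 3′ in the direction of transcription. They were searched on both strands for the MEF2 motif and for CACCC, the core of the sequence that Kruppel-like factors bind, whose reverse complement is GGGTG. The windows are Klf2 at chr8:72318812-72319061 on the plus strand, Klf4 at chr4:55532476-55532725 on the minus strand and Map3k3 at chr11:106084337-106084586 on the plus strand.
Klf2: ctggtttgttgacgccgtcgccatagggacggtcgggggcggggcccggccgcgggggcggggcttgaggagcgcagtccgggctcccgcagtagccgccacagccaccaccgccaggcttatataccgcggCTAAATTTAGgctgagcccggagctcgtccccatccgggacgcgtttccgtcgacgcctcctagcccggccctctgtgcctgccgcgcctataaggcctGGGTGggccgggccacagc
Klf4: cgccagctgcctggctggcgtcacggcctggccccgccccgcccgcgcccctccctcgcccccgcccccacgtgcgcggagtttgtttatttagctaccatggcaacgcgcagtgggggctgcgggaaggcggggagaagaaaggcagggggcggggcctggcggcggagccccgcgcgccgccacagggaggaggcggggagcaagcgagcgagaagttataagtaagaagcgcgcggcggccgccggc
Map3k3: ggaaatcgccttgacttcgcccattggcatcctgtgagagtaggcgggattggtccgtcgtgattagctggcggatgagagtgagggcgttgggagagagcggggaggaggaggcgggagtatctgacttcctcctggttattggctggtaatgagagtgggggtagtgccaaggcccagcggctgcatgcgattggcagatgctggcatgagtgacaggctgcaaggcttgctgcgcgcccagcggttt
The Klf2 window held 1 MEF2 match, from 118 to 109 bases before the start, which reads the same on both strands. It also held 1 CACCC match, written as GGGTG, from 19 to 15 bases before the start. The Klf4 and Map3k3 windows held 0 of either, which says only that these letters are not in these windows. Of the 7 members with a window in the table, Heg1 had 5 CACCC matches and Ccm2 had 2 in the window of its upstream start. Among all 32851 windows of the same length, 2.92% held a MEF2 match and 52% a CACCC match.

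The sorted cells were checked against marker genes. The mean of 26 genes shared by endothelium of most vessels was 9.80, 11.16, 11.27 and 9.39 log2 units on cortex arrays 72, 22, 19 and 18, against 11.73, 11.78, 11.88 and 11.32 on the lung arrays of the same numbers. Cortex arrays 72 and 18 thus lay well below cortex arrays 22 and 19, and all 4 cortex arrays lay below all 4 lung arrays. Of the 26 genes, 8 were called lower in cortex and 0 higher. Their differences ran from -3.14 (Clec14a) to 0.11 (Flt1), so the mean depends on which genes are taken. Tek itself averaged 11.70 ± 0.84 in cortex and 12.93 ± 0.28 in lung (SD, n = 4 each, limma adjusted p = 0.0575), and it was called without cortex array 22 (-1.48) or 19 (-1.46). Neural transcripts were plentiful in cortex, where the mean of 24 neural genes ran from 10.80 to 11.36, against 5.97 to 6.19 in lung, and 23 of them were called higher in cortex. Means of 12 macrophage and microglia genes ran from 5.80 to 8.84 in cortex and from 5.25 to 6.46 in lung, with 4 called higher in cortex (Csf1r, C1qb, C1qa and Cx3cr1, at differences of 2.37 to 4.48). Means of 10 fibroblast genes ran from 5.67 to 6.45 in cortex and from 7.58 to 9.75 in lung, with 8 called lower in cortex. Means of 7 choroid plexus genes ran from 6.47 to 7.64 in cortex and from 6.46 to 6.73 in lung. Of these Ttr (11.02 ± 2.72 in cortex and 5.94 ± 0.74 in lung) and Otx2 (9.69 ± 1.02 in cortex and 6.37 ± 0.86 in lung) were called higher in cortex and Aqp1 lower. Of 12 pericyte and smooth muscle genes 1 was called higher and 3 lower in cortex, of 8 erythroid genes 2 higher, of 5 platelet genes 1 higher, and of 8 lung epithelium genes 1 higher and 2 lower. The part of these other cells in the results was not tested. Since these endothelial means differed, differences are also given after pan-endothelial scaling, in which the mean of the 26 endothelial genes is subtracted on each array. With RNA from mixed cells, fewer endothelial cells and less of a transcript per endothelial cell cannot be told apart.

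Cortex and lung were compared with limma, a linear model that shares its estimate of the spread over all genes, with p-values adjusted by the Benjamini-Hochberg method over the 18193 genes. A gene was called at an adjusted p under 0.05. Of the 8 members, Map3k3 and Klf4 were called, 2 that fell in cortex, while 0 rose and 6 did not pass. Over all genes 18.1% were called, 7.71% lower in cortex and 10.4% higher. The mean was lower in cortex for 6 members, and for 10648 of the 18193 genes. Their median difference, cortex minus lung, was -0.66 log2 units, against -0.09 over all genes.

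**Figure D1:**
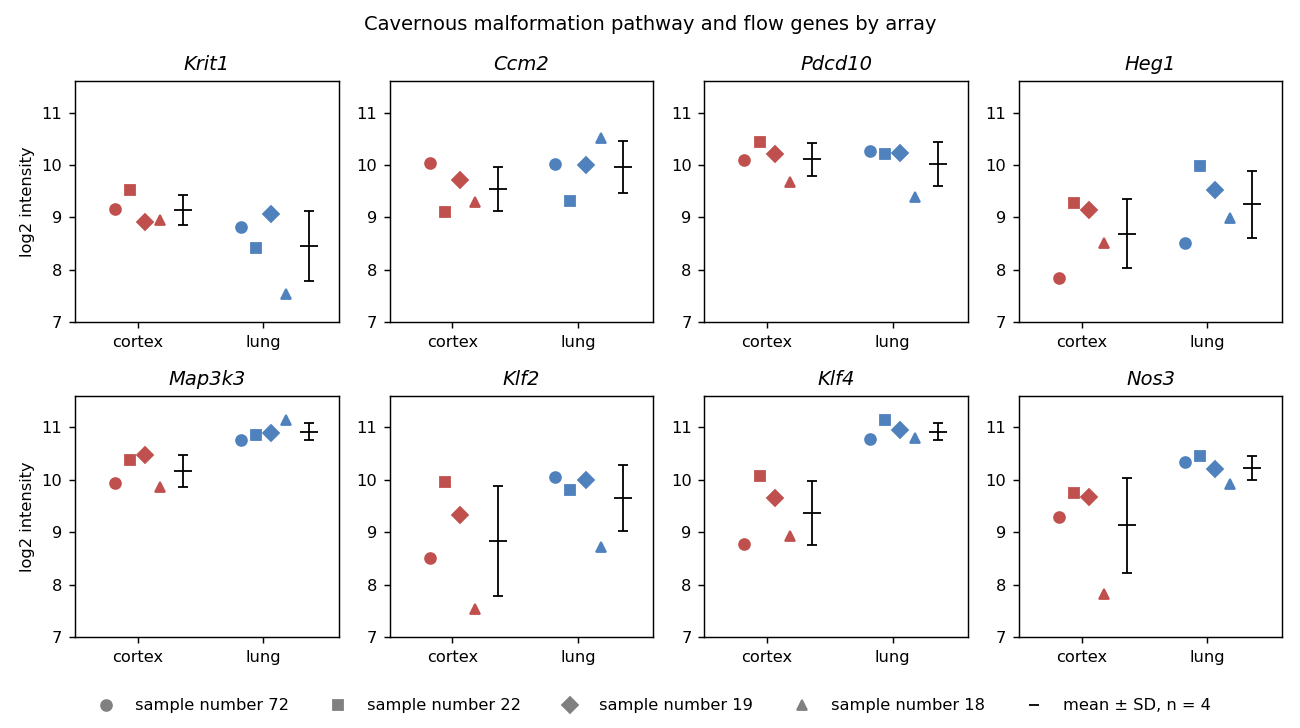
Log2 intensity of each member on the 4 cortex and the 4 lung arrays, with a marker shape for each sample number and bars for mean ± SD (n = 4). Map3k3, Klf4 and Nos3 show no overlap between the tissues, whereas the other 5 members do.

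Among the scaffold proteins, Krit1 had the largest difference towards cortex, without passing the test. KRIT1 binds HEG1 and brings the complex to cell junctions. On arrays 72, 22, 19 and 18 its level was 9.17, 9.53, 8.92 and 8.94 log2 units in cortex, against 8.81, 8.42, 9.07 and 7.55 in lung. The tissues overlapped through lung array 19, which lay above 2 of the cortex arrays, and lung array 18 was the lowest. Krit1 averaged 9.14 ± 0.28 in cortex and 8.46 ± 0.66 in lung (SD, n = 4 each). The difference was 0.68 with a 95% interval of -0.05 to 1.41 (limma adjusted p = 0.189), a 1.60-fold higher mean in cortex, and it was 0.37 without lung array 18.

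Ccm2, which encodes the adaptor that links KRIT1 to MEKK3, overlapped between the tissues. Its level was 10.04, 9.11, 9.71 and 9.29 in cortex, against 10.02, 9.31, 10.00 and 10.51 in lung. Array 22 was the lowest in both tissues, and lung array 18 was the highest of all. The difference was -0.42 with an interval of -1.09 to 0.24 (limma adjusted p = 0.359), and it ranged from -0.64 without lung array 22 to -0.24 without lung array 18.

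Pdcd10, whose product joins the complex to kinases of the germinal centre kinase family, had nearly equal means. Its level was 10.10, 10.44, 10.22 and 9.68 in cortex, against 10.26, 10.21, 10.23 and 9.40 in lung. Array 18 was the lowest in each tissue, far below the other 3 in lung. The difference was 0.09 with an interval of -0.47 to 0.64 (limma adjusted p = 0.831). Its sign rested on single arrays, at -0.02 without cortex array 22 and -0.12 without lung array 18.

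Heg1, the transmembrane receptor that anchors the complex, ran from low to high in both tissues. Its level was 7.85, 9.27, 9.14 and 8.50 in cortex, against 8.51, 9.97, 9.53 and 9.00 in lung. Each tissue had its lowest value on array 72 and its highest on array 22. The difference was -0.56 with an interval of -1.47 to 0.34 (limma adjusted p = 0.370), and -0.28 without cortex array 72 or -0.32 without lung array 22. With the sample number as a block Heg1 was called (interval -0.89 to -0.23, limma adjusted p = 0.0418). The cortex array was the lower at each of the 4 numbers. With a pooled litter as a replicate, 4 litters in the study and 4 arrays in each tissue, both tissues would come from the same litters. The labels do not state that equal numbers mark the same litter, and the main fit treats the arrays as independent.

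Map3k3, the kinase that the complex restrains, fell in cortex. On arrays 72, 22, 19 and 18 it was at 9.94, 10.37, 10.48 and 9.86 in cortex, against 10.76, 10.86, 10.89 and 11.15 in lung. Every cortex array lay below every lung array. Map3k3 averaged 10.16 ± 0.31 in cortex and 10.91 ± 0.16 in lung (SD, n = 4 each), a difference of -0.75 ± 0.18 (SE, limma adjusted p = 0.0223), or 1.68-fold higher in lung, which turned to 0.52 after pan-endothelial scaling. The call was near the threshold: without cortex array 72 the adjusted p was 0.0646, without cortex array 18 it was 0.0610, without lung array 19 it was 0.0536 and without lung array 18 it was 0.0507. A block for the sample number gave 0.0514. Without any 1 of these arrays the count of members lower in cortex was 1, Klf4.

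The 2 flow-responsive factors differed in how far their arrays lay apart. Klf2 was at 8.51, 9.96, 9.33 and 7.53 in cortex, against 10.06, 9.80, 10.01 and 8.72 in lung. Cortex arrays 22 and 19 lay within the range of the lung arrays, and array 18 was the lowest in each tissue. Klf2 averaged 8.83 ± 1.05 in cortex and 9.65 ± 0.63 in lung, the widest spread of any member in cortex. Its difference was -0.82 with an interval of -2.01 to 0.37 (limma adjusted p = 0.323), which includes 0. Without cortex array 18 it was -0.39.

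Klf4 fell in cortex, with the largest difference of the members. It was at 8.78, 10.08, 9.65 and 8.94 in cortex, against 10.79, 11.15, 10.95 and 10.80 in lung. The highest cortex array stayed below the lowest lung array, and the lung arrays lay within 0.36 log2 units of each other. Klf4 averaged 9.36 ± 0.61 in cortex and 10.92 ± 0.17 in lung (SD, n = 4 each), a difference of -1.56 ± 0.29 (SE, limma adjusted p = 0.00620), or 2.94-fold higher in lung. It was called in all 12 fits that left out an array or both arrays of a number, with differences from -1.80 to -1.36. After pan-endothelial scaling the Klf4 difference was -0.28, with overlapping arrays and without a call (limma adjusted p = 0.658).

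Nos3, which makes nitric oxide in endothelium, was at 9.28, 9.75, 9.68 and 7.82 in cortex, against 10.34, 10.46, 10.21 and 9.93 in lung. The arrays did not overlap, and cortex array 18 lay far below the other 3. Nos3 averaged 9.13 ± 0.90 in cortex and 10.23 ± 0.23 in lung (SD, n = 4 each), a difference of -1.10 with an interval of -2.02 to -0.18. It was not called over all genes (limma adjusted p = 0.0982), while an exact permutation test of Nos3 by itself gave p = 0.0286, the smallest that 4 arrays against 4 can give (two-sided, 70 assignments). Without cortex array 18 the difference was -0.66. Counted by arrays alone, 3 members (Map3k3, Klf4 and Nos3) had every cortex array below every lung array, as had 12% of all genes.

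Members with several probe sets allowed a second reading. Of the 19 probe sets, 7 had a higher and 12 a lower mean in cortex, and 4 were called when all 45037 probe sets were fitted together, each of them lower in cortex. Both Klf4 probe sets were called, at -1.56 and -1.53. Of the 3 for Map3k3, those at -0.75 and -0.99 were called and that at -0.61 was not. All 5 Krit1 probe sets had differences of 0 or more, from 0.01 to 1.06, and none was called. The 3 for Ccm2 lay between -0.51 and -0.42, and the 3 for Pdcd10 between -0.07 and 0.09.

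**Figure D2:**
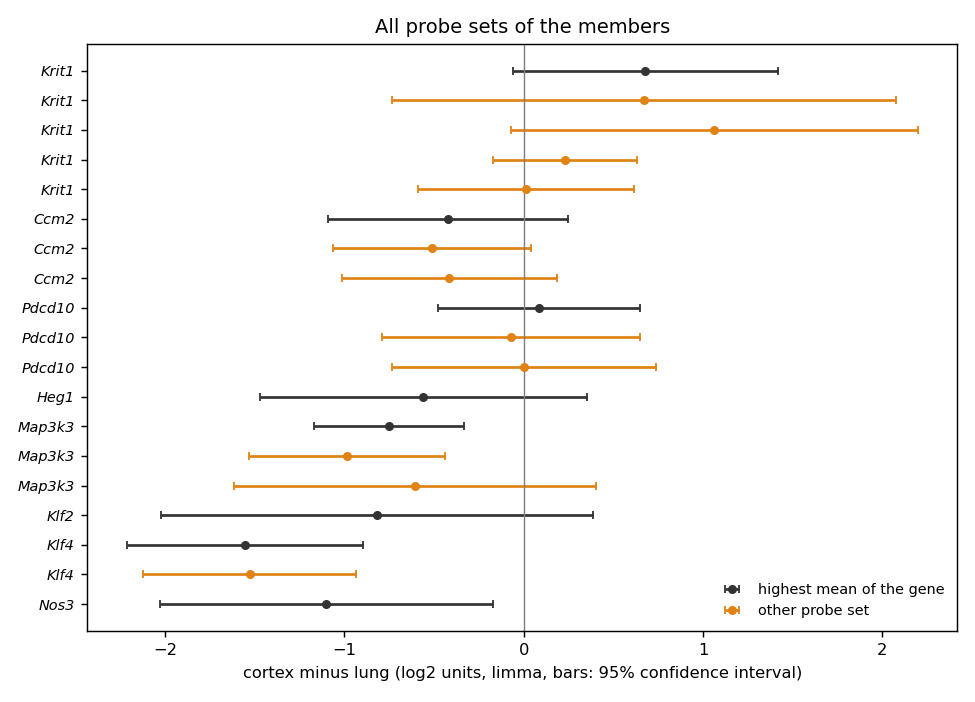
Difference between cortex and lung in log2 units, with 95% confidence intervals from limma, for all 19 probe sets of the members. The chosen probe set of each gene is dark, and the 4 whose calls passed over all probe sets belong to Map3k3 and Klf4.

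Within the cortex, most members had the order of the pan-endothelial means. Cortex arrays 22 and 19, which had the higher pan-endothelial means, were both above arrays 72 and 18 for Pdcd10, Heg1, Map3k3, Klf2, Klf4 and Nos3, 6 of the 8 members. Krit1 and Ccm2 were mixed. The same order held for 17% of all genes, while 28.7% of all genes had the opposite order. It held for 26 of the 26 pan-endothelial genes, but their own mean gave the split, so this is no separate benchmark. Of the 24 neural genes, 0 had the members' order and 13 the opposite one. The lists described further on had the members' order as well. It held for 73.3% of flow sensors, and for 60% of genes raised and 53.8% of genes lowered by KLF2 or KLF4. It also held for 54.2% of immediate early and dissociation genes and 52.2% of complex partners. For nitric oxide genes the share was 44.4% and for other Kruppel-like factors 28.6%. The opposite order held for 4.17% to 28.6% of these lists. The SD over cortex arrays was 3.96 times that over lung arrays for Nos3 and 3.64 times for Klf4, and 0.42 times for Krit1.

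**Figure D3:**
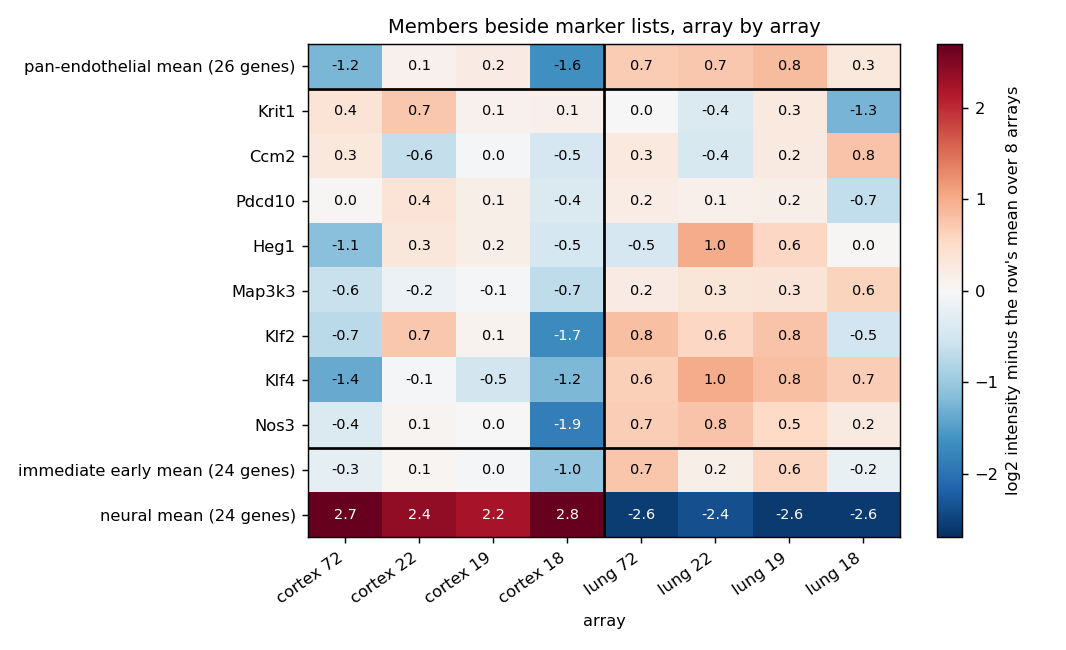
Log2 intensity on each array minus the mean of its row over the 8 arrays, for the pan-endothelial mean, the members, the immediate early mean and the neural mean, with cortex arrays left of lung arrays. Cortex arrays 72 and 18 are low for the pan-endothelial mean, Klf4 and Nos3, but not for Krit1.

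After pan-endothelial scaling 7 of the 8 members had a higher mean in cortex. This scaling shifts every gene by 1.27 log2 units towards cortex and puts the median gene at 1.19, so a value under 1.19 lies below that of the median gene. Krit1 was at -0.63, -1.63, -2.35 and -0.45 on cortex arrays 72, 22, 19 and 18, against -2.92, -3.35, -2.81 and -3.77 on the lung arrays. The arrays did not overlap and the difference was 1.95 (exact permutation p = 0.0286, the smallest possible). Pdcd10 was at 0.30, -0.72, -1.05 and 0.29 in cortex, against -1.47, -1.57, -1.65 and -1.92 in lung. It too did not overlap, with a difference of 1.36 (exact permutation p = 0.0286). Among all genes, 33.4% had every cortex array above every lung array after this subtraction.

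The other 6 members overlapped on this scale. The differences were 0.85 for Ccm2 (exact permutation p = 0.257), 0.71 for Heg1 (p = 0.114, exact), 0.52 for Map3k3 (p = 0.171, exact), 0.45 for Klf2 (p = 0.171, exact), 0.17 for Nos3 (p = 0.771, exact; -0.08 without cortex array 72) and -0.28 for Klf4 (p = 0.314, exact). Klf4 was thus the only member with a lower mean in cortex both as deposited and after scaling, and neither Klf4 nor Map3k3 was called on this scale. The median over the 8 members was 0.62. With the scaled arrays in limma, 1 member, Krit1, was called higher in cortex (1.95, adjusted p = 0.00616), as were 32.2% of all genes. That fit gave the members the same SE of 0.59, so its calls are in effect a limit on the fold.

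**Figure D4:**
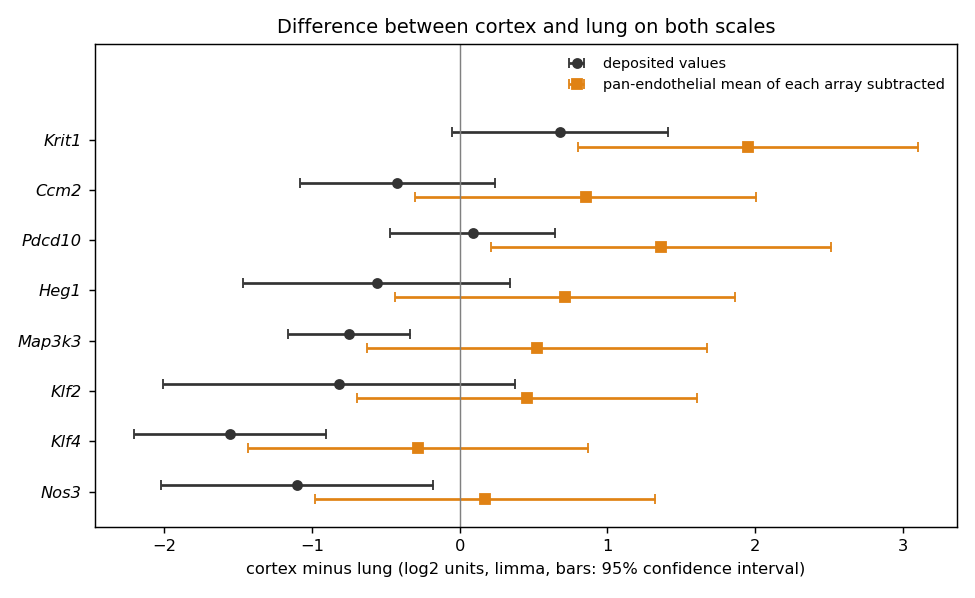
Difference between cortex and lung in log2 units with 95% confidence intervals from limma, for the deposited values and after subtraction of each array's pan-endothelial mean. The deposited intervals of Map3k3, Klf4 and Nos3 lie below 0, and after subtraction those of Krit1 and Pdcd10 lie above 0.

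Differences between 2 members on the same array do not depend on a shift of the whole array, so all 28 pairs were compared, a comparison chosen after the data were seen. In 9 pairs the cortex and lung arrays did not overlap, each at the smallest exact permutation p of 0.0286. The adjusted p over the 28 pairs was 0.0889 for these, and 0 pairs passed. Pairs that share a member are not independent. The share of non-overlapping pairs among all genes was not computed, so the 9 cannot be set against a background. Krit1 took part in 5 of the 9, as the member that lay higher in cortex relative to Ccm2 (1.10), Map3k3 (1.43), Klf2 (1.50), Nos3 (1.78) and Klf4 (2.23). Pdcd10 lay higher in cortex relative to Map3k3 (0.84), Nos3 (1.19) and Klf4 (1.64), and Heg1 relative to Klf4 (0.99). Without lung array 18, Krit1 minus Ccm2 was 0.61 and Pdcd10 minus Map3k3 0.55. Klf2, Map3k3 and Nos3 overlapped in each pair, with differences of 0.07 for Map3k3 minus Klf2, 0.28 for Klf2 minus Nos3 and 0.35 for Map3k3 minus Nos3.

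The genes around the members were read from lists. Beside the counts of these lists stand the shares over all genes, 7.71% called lower and 10.4% called higher in cortex. After pan-endothelial scaling 32.2% of all genes were called higher, and 137 of the 18193 genes lower. Of 23 measured partners of the complex and steps of the cascade from MEKK3 to ERK5, 3 fell in cortex, 0 rose and 20 did not pass, with a median of -0.23. Rasip1, a RAP1 effector of endothelial junctions, was at 7.79, 9.17, 9.74 and 7.46 in cortex, against 10.21, 10.66, 10.51 and 10.47 in lung, and was 3.79-fold higher in lung (limma adjusted p = 0.0241; -0.65 and not called after pan-endothelial scaling). Its arrays did not overlap, and arrays 72 and 18 were again the low ones in cortex. After scaling the Rasip1 arrays still did not overlap (exact permutation p = 0.0286). Stk26, a kinase that binds PDCD10, differed by -1.20 (adjusted p = 0.0420; 0.08 after scaling), with overlapping arrays. Mef2c, the third of them and a factor downstream of ERK5, was named after its values were seen and differed by -0.95 (adjusted p = 0.0185; 0.33 after scaling). The kinases between them were not called, with Map2k5 (MEK5) at a difference of 0.15 and Mapk7 (ERK5) at 0.33. The calls of this list rested on single arrays, with 0 genes called without cortex array 72 or lung array 19. Rasip1 also lost its call without lung array 22 (-1.86, adjusted p = 0.0621) or lung array 18 (-1.92, adjusted p = 0.0529). Stk26 kept its call only without cortex or lung array 22, its lowest adjusted p without any other array being 0.0559. Pan-endothelial scaling gave 7 of the 23 higher in cortex and 0 lower, where 32.2% of all genes were higher.

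Of 15 flow sensors measured, 3 fell in cortex and 1 rose, and 11 did not pass, with a median of -0.57. Acvrl1 (ALK1), a receptor for BMP9 whose loss causes hereditary telangiectasia, was at 9.24, 10.72, 10.58 and 8.44 in cortex, against 11.38, 11.30, 11.46 and 11.54 in lung. The mechanically gated channel Piezo1 was at 9.59, 10.46, 10.43 and 8.80 in cortex, against 11.35, 11.41, 11.40 and 11.69 in lung. Neither overlapped, and they were 3.20-fold (limma adjusted p = 0.0411) and 3.12-fold (adjusted p = 0.0135) higher in lung. After pan-endothelial scaling they lay at -0.40 and -0.37, with overlapping arrays and without a call. The other genes called, named after their values were seen, were the semaphorin receptor Plxnd1 at -1.53 and the G protein Gnaq at 0.53. Pecam1 and Cdh5, of the junctional sensor complex, were not called. Pecam1 averaged 8.98 ± 1.06 in cortex, against 10.46 ± 1.03 in lung (limma adjusted p = 0.149), and Cdh5 averaged 8.39 ± 1.09 in cortex, against 9.65 ± 1.06 in lung (limma adjusted p = 0.225; SD, n = 4 each). Without lung array 18 Pecam1 was called, at -1.99. Acvrl1 lost its call without cortex array 72 or 18 or any 1 lung array, at differences of -1.72 to -1.24, and with the sample number as a block (adjusted p = 0.0587). Without cortex array 72, or without any 1 of lung arrays 72, 22 and 19, 1 sensor was called, and 2 were called without cortex array 22 or 18. After pan-endothelial scaling, 3 of the sensors were called higher and 0 lower in cortex. The list shares 4 genes (Pecam1, Cdh5, Kdr and Eng) with those used for the scaling.

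Of 20 genes measured that KLF2 or KLF4 are known to raise, 7 fell in cortex, 1 rose and 12 did not pass. The median was -0.91. The water channel Aqp1 was at 6.19 to 6.52 in cortex and at 11.53 to 11.95 in lung, 43.6-fold higher in lung (limma adjusted p = 4.95e-07). Bmp4, a growth factor, was at 5.21 to 6.87 in cortex and at 10.20 to 10.84 in lung, 22.5-fold higher in lung (adjusted p = 7.93e-05). Both are also made by cells other than endothelium, and Aqp1 is a marker of choroid plexus as well. The other 5 that fell were Cyp1b1, Bmp6, Cav1, Thbd and Gja5, at differences of -3.69 to -1.05, and the gene that rose was Adm, at 2.26. These 6 were named after their values were seen. Gja5 lay below the array medians in both tissues, at 4.93 in cortex and 5.99 in lung. After pan-endothelial scaling 5 of the list were called lower in cortex and 3 higher.

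Of 13 genes measured that KLF2 or KLF4 are known to lower, 5 fell in cortex, 0 rose and 8 did not pass, with a median of -0.49. The vasoconstrictor gene Edn1 was at 7.53, 8.39, 8.26 and 6.96 in cortex, against 9.87, 10.79, 10.50 and 9.93 in lung, 5.61-fold higher in lung (limma adjusted p = 0.00167). Ace, which makes angiotensin II, was 3.53-fold higher in lung (adjusted p = 0.00481), at 6.43 ± 0.63 in cortex and 8.25 ± 0.35 in lung (SD, n = 4 each). The other 3 were Icam1, Ccn2 and Sele, named after their values were seen. Sele lay far below the array medians in both tissues, at 4.21 in cortex and 4.70 in lung. The count was 3 without cortex array 72 or any 1 of lung arrays 22, 19 and 18. After pan-endothelial scaling, 4 were called higher and 0 lower in cortex, and Edn1 (-1.21) and Ace (-0.55) were not called. Edn1 still had every cortex array below every lung array on that scale (exact permutation p = 0.0286), whereas the arrays of Ace overlapped.

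Around Nos3, the list of nitric oxide synthesis and response had 18 measured genes, of which 3 rose in cortex, 2 fell and 13 did not pass, with a median of -0.18. Nos1, the neuronal synthase, was at 9.11, 8.63, 7.05 and 8.05 in cortex, against 5.07, 5.82, 5.63 and 4.49 in lung, 7.76-fold higher in cortex (limma adjusted p = 0.00266). Of its 4 probe sets, another was called in the same direction at 1.39, and the others lay at 0.26 and -0.21 without a call. Cav1, whose protein binds and restrains endothelial nitric oxide synthase, was at 8.84, 11.03, 10.35 and 8.19 in cortex, against 12.19, 12.95, 12.74 and 12.11 in lung, 7.42-fold higher in lung (adjusted p = 0.00994). The others called, named after their values were seen, were Arg2 at 2.69, Ddah1 at 0.56 and Spr at -0.99. The inducible synthase Nos2 was not called, at -0.37.

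Of 14 other Kruppel-like factors, 2 rose in cortex, 1 fell and 11 did not pass, with a median of -0.20. Klf12 was 3.30-fold higher in cortex (limma adjusted p = 0.00360), at 9.76 ± 0.23 in cortex and 8.04 ± 0.59 in lung. Klf14 was 3.70-fold higher in lung (adjusted p = 0.0219), at 5.75 ± 0.70 in cortex and 7.64 ± 0.80 in lung (SD, n = 4 each), with overlapping arrays, and lost its call without cortex array 72 or 22 or lung array 19 (differences of -1.76 to -1.68). The remaining call, Klf15 at 1.12, was named after its values were seen. Klf3, Klf6 and Klf10, which lay at differences of -0.74, -0.33 and -0.14, were not called. Pan-endothelial scaling gave 5 of the list higher in cortex and 0 lower, with a median of 1.08, and Klf14 lay at -0.61 without a call.

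Klf2 and Klf4 are known to be raised, with the immediate early genes, when tissue is dissociated. Of 24 genes of that kind, 6 fell in cortex, 1 rose and 17 did not pass, with a median of -0.51. The mean over the list was 8.71, 9.03, 8.94 and 7.94 on cortex arrays 72, 22, 19 and 18, against 9.72, 9.13, 9.56 and 8.77 on the lung arrays. Array 18 was the lowest in each tissue, as it was for Klf2, for the pan-endothelial mean and for the mean of each other surrounding list. Klf4 instead was lowest on array 72 in each tissue, at 8.78 in cortex and 10.79 in lung. Socs3, an inhibitor of cytokine signalling, was 7.20-fold higher in lung (limma adjusted p = 0.000253) and the heat shock gene Hspa1b 3.69-fold (adjusted p = 0.0401), while Fos and Egr1 were not called, at -0.47 and 0.07. The count of 7 called genes was 2 without cortex array 72, 4 without any 1 of the other cortex arrays and 3 without any 1 of lung arrays 72, 22 and 19. Hspa1b lost its call without any 1 of the cortex arrays or of lung arrays 72 and 22, at differences of -2.06 to -1.80. Its other probe sets lay at -0.92 and -1.30 without a call. It was also not called by the mean over its probe sets (-1.37, limma adjusted p = 0.119) or with all probe sets fitted together (limma adjusted p = 0.0546). Pan-endothelial scaling gave 3 of the list higher in cortex and 1 lower, with a median of 0.76, and Hspa1b lay at -0.61 without a call. The part of dissociation in the values of Klf2 and Klf4 was not tested.

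**Figure D5:**
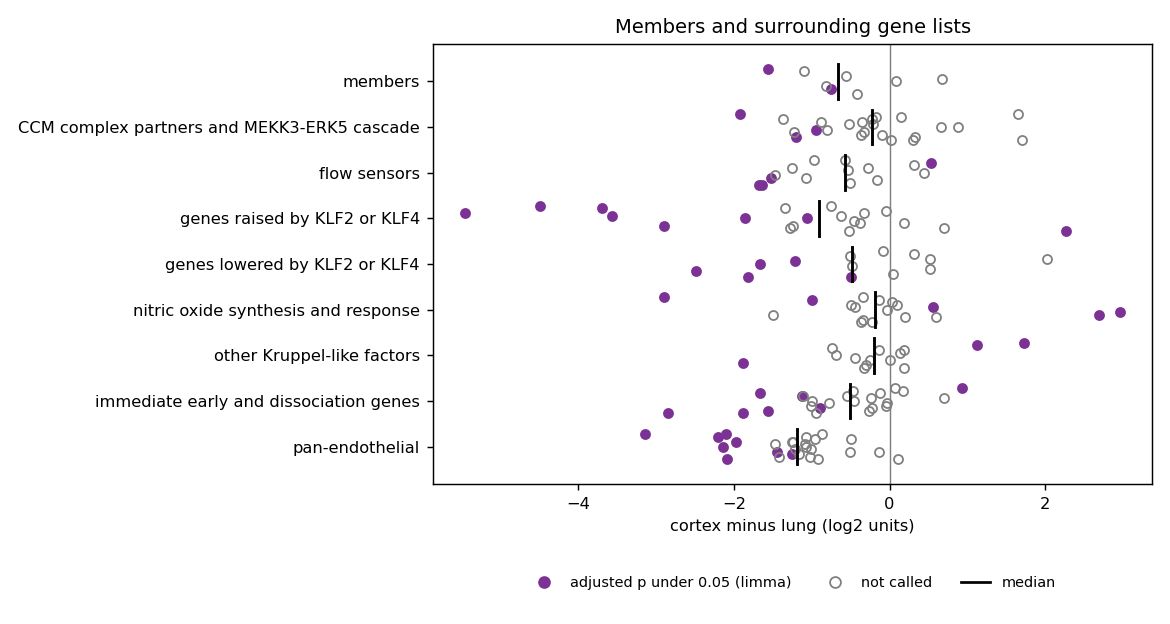
Difference between cortex and lung in log2 units for the members, the 7 surrounding gene lists and the pan-endothelial list, with filled points for genes called by limma and a vertical bar at each median. The members' median of -0.66 lies between that of the pan-endothelial list (-1.19) and 0.

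For each member the genes with the most similar course over the 8 arrays were taken, by the root mean square distance between profiles centred on their own means, in log2 units. The closest of all was Fundc2 to Map3k3, at 0.06, followed for Map3k3 by Homer3 at 0.08, where the median gene lay at 0.53. Pikfyve and Btbd10 lay closest to Krit1 (0.10 and 0.11), Fbxo34 and Prpf3 to Ccm2 (0.12 and 0.15) and Selenot and Rpe to Pdcd10 (0.10 each). Heg1 had Evi5 and Nck1 (0.24 and 0.27), Klf2 had Sgms1 and Pxdc1 (0.20 and 0.21), Klf4 had Phactr2 and Zfp979 (0.19 each) and Nos3 had Cdhr4 and Srgn (0.15 and 0.16). The median gene lay at 0.48 to 0.91 from the members. Some distances rested on 1 array, at 0.037 for Pikfyve without cortex array 22, 0.041 for Homer3 without cortex array 72, 0.137 for Evi5 and 0.131 for Sgms1 without lung array 22 and 0.109 for Zfp979 without lung array 18. These are resemblances among 18193 genes over 8 arrays of 2 tissues, and no member was among the closest genes of another.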

How the data were processed

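The data are 8 Affymetrix mouse genome arrays. The authors deposited log2 expression values for 45101 probe sets, made with RMA in the affy package per the submitters' processing notes, whose versions are not given in the sources used here. RMA compresses low values. It gives all arrays the same quantiles of probe intensities before these are combined into probe sets, so a difference is relative to the other genes of the array. Leaving aside 64 control probe sets, of the other 45037, 34945 named 1 gene, 932 several and 9160 none here. All 8 columns were used.

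The comparison of cortex with lung used lmFit and eBayes of limma 3.58.1 (R 4.3.3), without a block, over 18193 genes and with Benjamini-Hochberg adjustment. Tests are two-sided, intervals are at 95%, and SD and n are over arrays, each a pooled litter. Exact permutation tests used all 70 assignments. The fit was tested on simulated data. The members and the lists were chosen with earlier results of these data known, so counts over them support nothing independently. Named genes were the members, the 2 called genes of each list with the largest difference, the 2 genes nearest each member, and Tek, Pecam1 and Cdh5. Of the named genes outside the members, 18 had several probe sets, 4 of them (Evi5, Nos1, Pikfyve and Selenot) with another of the opposite sign and no call. Over the 16 lists 14 genes were not measured here. Kdr stands in 3 lists, and Aqp1, Cav1, Cdh5, Eng, Pecam1 and Tek stand in 2, all of these but Aqp1 and Cav1 with the pan-endothelial list among them. Alternatives were 10 other settings and 12 fits leaving out arrays.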

Additional observations from a re-analysis of the deposited data

Results flagged for a closer look

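In 5 cases, 1 array lay far from the other 3 of its tissue, with a gap above Dixon's 95% critical value as a share of the whole range. Chance flags about 1 in 20 groups of 4, and 84 groups were tested. Pdcd10, a member, lay at 9.396 on lung array 18, against 10.21 to 10.26 on the other lung arrays. Pecam1, an endothelial marker, lay at 8.917 there, against 10.82 to 11.05, and Srgn, the proteoglycan gene near Nos3 in profile, at 10.5, against 11.13 to 11.25. The channel gene Piezo1 lay at 11.69 on the same array, above the 11.35 to 11.41 of the others. Socs3 lay at 6.778 on cortex array 18, against 7.907 to 8.054 on the other cortex arrays.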

How the results depend on the processing

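Pan-endothelial scaling moved the members most. It gave Krit1 1.95 with a call, Ccm2 0.85, Heg1 0.71, Map3k3 0.52, Klf2 0.45, Nos3 0.17 and Klf4 -0.28, none of these 6 called, with 0 members lower and 1 higher in cortex. It gave 137 genes lower and 5852 higher in cortex, Stk26 0.078, Mef2c 0.33, Tek 0.036 and Cdh5 0.015, and 7, 5 and 4 called genes in the lists of complex partners, other Kruppel-like factors and immediate early genes, all higher in cortex but 1 immediate early gene. Array weights gave Pdcd10 -0.027 and 2233 genes lower in cortex. The mean over a gene's probe sets gave Map3k3 -0.78 (adjusted p = 0.0606), Hspa1b -1.37 (adjusted p = 0.119), 1 member lower and 5 called complex partners. Over probe sets the counts were 2197 lower and 3278 higher, and the exact permutation test gave Nos3, at -1.10, a p of 0.0286, as it did Map3k3 and Klf4. Same-numbered cortex and lung arrays deviated from their tissue means with correlations of -0.16 to 0.34 over genes, over 0.1 for 2 of 4 numbers. Arrays of different numbers gave -0.35 to 0.31, a similar range, so these correlations could neither show nor exclude that equal numbers share a litter. The main fit had no block because no label states that the numbers pair samples. With the sample number as a block, Heg1 passed at -0.56 (adjusted p = 0.0418) and Map3k3 did not at -0.75 (adjusted p = 0.0514). Tek (adjusted p = 0.0260) and Pecam1 (0.0176) passed too, and Stk26 (0.0977) and Acvrl1 (0.0587) did not, while 2 of 4 cortex arrays correlated best with their own number. Leaving out arrays, the differences ranged from -0.87 to -0.57 for Map3k3, -1.31 to -0.66 for Nos3 (called only without both arrays 18, at -0.76), -0.12 to 0.23 for Pdcd10 and -0.081 to 0.28 for Nos3 after scaling. Members lower ranged from 1 to 2, genes lower from 675 to 1274 and genes higher from 1248 to 1966. Called genes ranged from 0 to 4 among complex partners, 0 to 5 among flow sensors, 5 to 10 and 3 to 4 among genes raised and lowered by KLF2 or KLF4, 2 to 6 in the nitric oxide list, 1 to 4 among other Kruppel-like factors and 2 to 7 among immediate early genes. The cause of these changes was not tested. Klf4 kept its direction under every setting run and its call under all but the pan-endothelial scaling. The number of arrays limits the precision, and RMA values carry no detection call.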
